A study of Drosophila melanogaster and Drosophila biarmipes with 20 samples.

Results

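The anteroposterior patterning genes of the Drosophila melanogaster wing were followed as 8 genes, engrailed (en), invected (inv), hedgehog (hh), patched (ptc), cubitus interruptus (ci), decapentaplegic (dpp), Dad and brinker (brk). Their regions of open chromatin were those that overlapped the gene's span in dm6, or lay within 10 kb of its nearer end with no closer protein-coding gene. This gave 141 of the 98646 regions in the merged union of 10 single-library lists, at 8 of the 13029 genes with a region. The assay was ATAC-seq, which reads out where a transposase can reach the DNA, on wings of male D. melanogaster at 5 stages with 2 libraries each. Stages are named by percent of pupal development (0%, 48%, 60%, 69%, 78%). The labels call every sample pupal wings, but per the labels' protocols the 0% libraries were made from 24 wing discs, the 48% libraries from 14 to 17 wings of at least 11 individuals (there named 47%), and the later ones from 24 wings. Flies of the species' genome line were reared at 1 temperature and no genotype, allele or treatment separated the groups, so stage was the only labelled contrast. Wings past 60% were the only ones cut up before they were disrupted, so that step and stage cannot be told apart at 69% and 78%. Nor can stage be told apart from the use of discs at 0% or from the lower number of wings at 48%. D. biarmipes, the other species of the series, was not analysed here.

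In the growing wing disc, the homeodomain factors En and Inv mark the posterior compartment, turn on the secreted ligand Hh and keep ci off. Hh binds its receptor Ptc on anterior cells, which spares the transcription factor Ci from conversion to a repressor, and Ci turns on ptc and dpp in a stripe along the compartment boundary. Dpp, a BMP ligand, spreads from that stripe, represses brk, itself a repressor of Dpp targets, and induces Dad, an inhibitory Smad. In the pupal wing dpp and its receptors act again in vein formation.

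The lists held positions only, so 2 measures were taken. A region was listed by a library if any entry of that library shared at least 1 base with it, and a gene's covered length was the summed length of a library's entries in the gene's regions. Over all libraries the lists rested on 56282342 to 119278540 tags, held 41485 to 80705 entries and covered 18.0 to 24.44 Mb. The share of tags inside listed regions, as the caller estimated it, was 56.06% and 59.21% at 0%, 62.50% and 62.78% at 48%, 53.09% and 55.35% at 60%, 46.33% and 46.94% at 69%, and 37.48% and 39.22% at 78%, so it was lowest where several genes below were covered least, and its part in those results was not tested. The fragment length used by the caller was 138 to 208 bp in replicate 1 of 0%, both libraries of 48% and replicate 2 of 60%, and 50 to 58 bp in the others. Wing marker genes (vg, nub, ap and sd) had regions at every stage, with a summed covered length of 31.3 to 32.5 kb at 0% and 20.8 to 23.9 kb at 78%. The labels call the libraries of a stage biological replicates without saying how wings were divided among them, so p-values measure the spread between these libraries.

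The regions of the 8 genes were listed more steadily than regions at large. Of the 141, 51 were listed in all 10 libraries (36.2%, against 16.7% of all regions), and 25 in exactly 1 library (17.7%, against 29.8%). Each stage had both libraries or neither at 90 of the 141 (63.8%, against 35.7%). In bulk wings, fewer cells with an open region and less opening per cell cannot be told apart. Regions in more libraries were wider: the 51 had a median width of 1113 bp and the 25 a median of 128 bp, and the median was 596 bp over the members and 257 bp over all regions. Both libraries listed 88 members at 0% (62.4%, against 36.9% of all regions), 78 at 48% (55.3%, against 28.1%) and 71 at 60% (50.4%, against 34.8%). The counts were 72 at 69% (51.1%, against 41.5%) and 67 at 78% (47.5%, against 37.4%), so the share of members was above that of all regions at each stage. By the regions they shared, 8 of the 10 libraries were nearest to the other library of their stage, and both 78% libraries were nearest to replicate 2 of 69%.

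By place, 99 of the 141 regions overlapped a gene's span, 18 lay beyond its low-coordinate end and 24 beyond its high-coordinate end. The gene table gives 1 span per gene without strand or exons, so ends are named by coordinate. For 7 of the 8 genes at least 1 end of the span lay in a region listed in all 10 libraries (87.5%, against 61.8% of protein-coding genes).

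**Figure D1:**
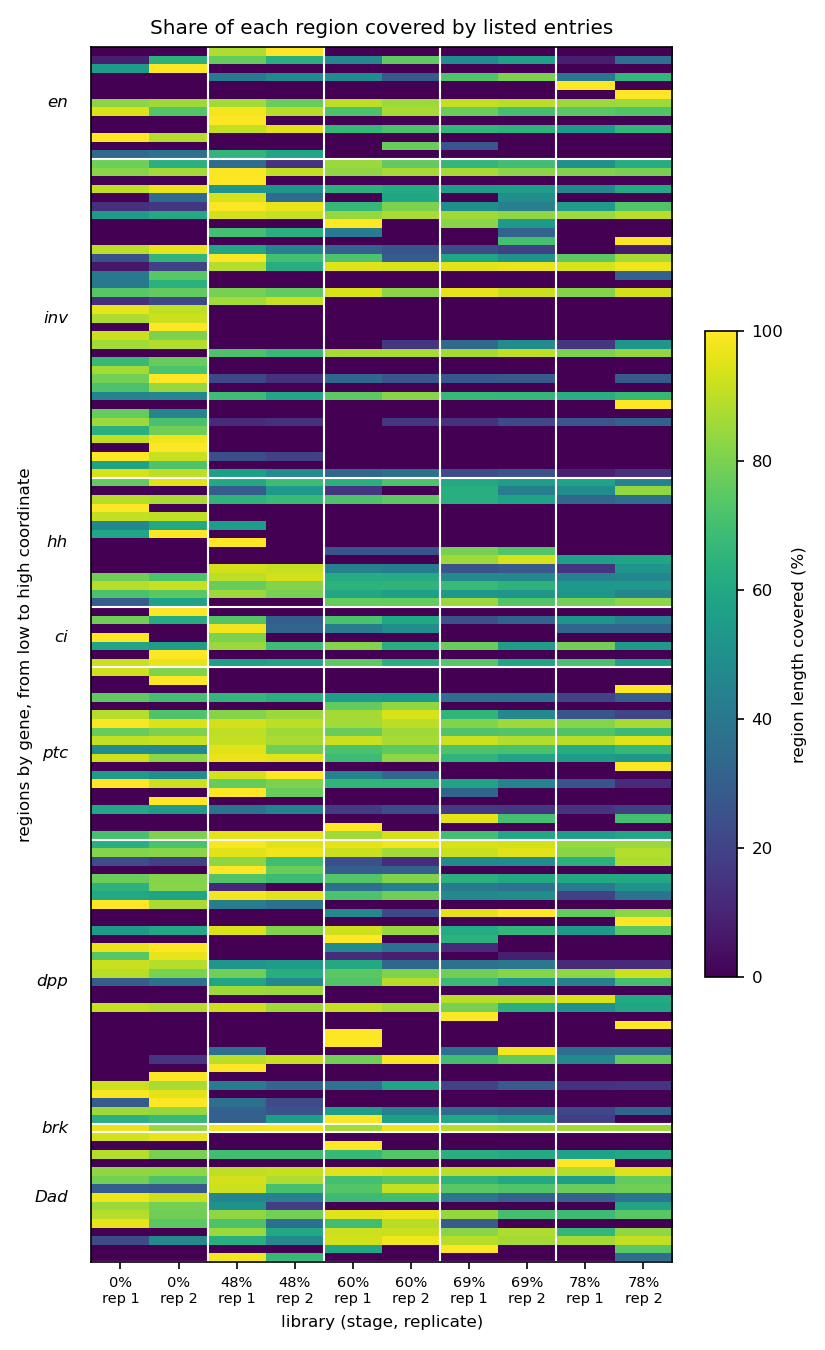
Share of each of the 141 regions (rows, grouped by gene and ordered by coordinate) covered by the listed entries of each library (columns, 2 per stage), as a colour from 0 to 100% of the region's length. The block of regions covered in the 0% libraries and dark in the others lies in inv, and brk is a single row covered in all 10 libraries.

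Both libraries listing a region at one stage and neither at another is called opened or closed below, and 2 libraries against 2 cannot give an exact two-sided p under 0.333 at a single region. Between 0% and 48%, 13 of 117 assessed regions opened (11.1%, against 8.84% of all regions) and 23 closed (19.7%, against 19.8%), so the members' closed share was that of all regions. Of the 23 closed regions 13 were in inv, without which 10 of 83 closed (12%), and of the 13 opened ones 3 were in en. From 48% to 78% the counts were 5 opened of 103 (4.85%, against 16.5%) and 13 closed (12.6%, against 5.26%). From 0% to 78%, 11 of 122 opened (9.02%, against 13.6%) and 28 closed (23%, against 11.2%), and without inv 15 of 88 closed (17%). With a single library to decide each stage, the count opened from 0% to 48% was 20 without replicate 2, that opened from 48% to 78% was 17 without replicate 1, and that closed from 48% to 78% was 23 without replicate 2.

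Between neighbouring pupal stages the closed share of the members was highest at the first step. From 48% to 60%, 6 of 101 regions opened (5.94%, against 11.3%) and 10 closed (9.9%, against 4.07%). From 60% to 69%, 4 of 91 opened (4.4%, against 7.62%) and 4 closed (4.4%, against 2.66%). From 69% to 78%, 1 of 95 opened (1.05%, against 3.17%) and 2 closed (2.11%, against 4.35%). In each comparison of pupal stages the members thus opened at a lower share than all regions, and no test of that difference was made.

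**Figure D2:**
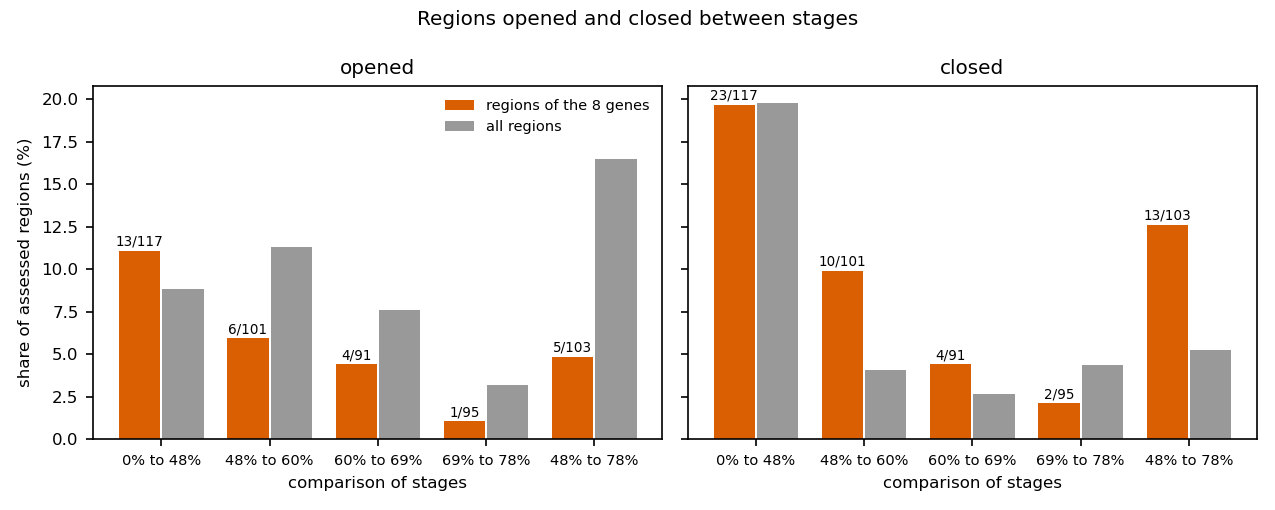
Share of assessed regions (y axis, %) that opened (left) or closed (right) in 5 comparisons of stages (x axis), for the regions of the 8 genes (orange, with called over assessed regions) and all regions (grey). The members' closed share is close to that of all regions from 0% to 48%, at 19.7% against 19.8%, and above it from 48% to 78%, at 12.6% against 5.26%.

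The posterior selector gene inv (Dmel_CG17835, 2R, 11474465 to 11509695) held most of the member regions listed in the disc alone. Of its 37 regions, 10 were listed in all 10 libraries, as were 16.7% of all regions. A further 11 were listed in both 0% libraries and in no pupal library. Among all members 18 of 141 regions had that disc pattern (12.8%, against 5.84% of all regions), and without inv it was 7 of 104 (6.73%). Of the 11, 8 lay inside the span and 3 between inv and en. The widest of them adjoined each other near the middle of the gene, from 11491770 to 11493160 and from 11493206 to 11494347. The first was covered over 1340 and 1256 bp in the 0% libraries, the second over 1002 and 1057 bp, and neither by any entry in the 8 pupal libraries.

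Other regions of inv followed other courses, among them 1 of the 5 member regions listed in all 8 pupal libraries and no disc library (3.55%, against 2.67% of all regions). Listed in all 4 libraries of 0% and 48% and in none later, as were 5 member regions (3.55%, against 0.36%), was the stretch from 11490372 to 11491119, over 101 and 161 bp at 0% and 643 and 684 bp at 48%. The stretch from 11496670 to 11497576 was absent from both 0% libraries and covered over 616 to 820 bp in all 8 pupal libraries. Over the low-coordinate end, the region from 11474435 to 11474591 was listed by replicate 1 of 48% alone, over 157 bp. The region over the high-coordinate end, from 11508339 to 11509713, was covered over 1172 and 980 bp at 0%, 165 and 189 bp at 48%, 0 and 216 bp at 60%, 186 and 303 bp at 69%, and 367 and 428 bp at 78%. Both disc values exceeded every pupal value. The widest region, from 11501298 to 11503914, went the other way, with 1183 and 1216 bp at 0% and 1561 to 2139 bp in the pupal libraries. A wide region inside the gene, from 11486277 to 11487813, was covered over 101 and 296 bp at 0% and over 957 to 1499 bp in every pupal library. The inv locus therefore held both places covered further in the disc and places covered further in the pupal wing.

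The paralogue en (Dmel_CG9015, 2R, 11524006 to 11528210) had 13 regions, of which 3 overlapped its short span and 10 lay beside it. The region over its high-coordinate end, from 11527396 to 11528697, was listed in all 10 libraries over 1007 to 1180 bp, a narrow range. Beyond that end, the region from 11534003 to 11535283 was listed in no 0% library, over 1161 and 1223 bp at 48%, and over 696 to 919 bp in the 6 later libraries. Beside the low end, the region from 11522930 to 11523917 was likewise listed in no 0% library and in all 8 pupal libraries, over 281 to 794 bp. Listed in the disc alone were the regions from 11521809 to 11522100 (161 and 292 bp) and from 11535966 to 11536390 (425 and 377 bp). Farther out, from 11537582 to 11538271, 237 and 259 bp were listed at 0%, 454 and 408 bp at 48%, and none later. The region from 11518171 to 11518417 was covered over 218 and 247 bp at 48% and in no other library, as was 1 region of dpp (2 of 141 members, 1.42%, against 0.93%).

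**Figure D3:**
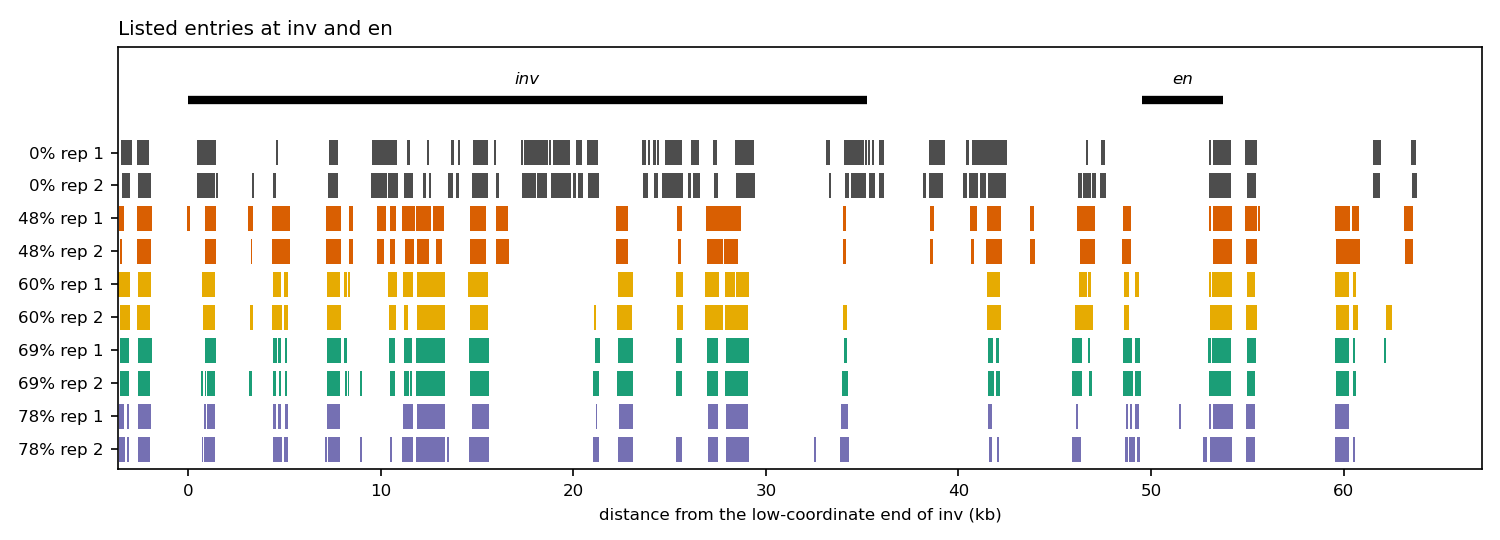
Entries listed by each library (rows, coloured by stage) at inv and en against distance from the low-coordinate end of inv (x axis, kb), with the gene spans as black bars. Between about the middle of inv and the space before en, the 0% libraries hold entries that the 8 pupal libraries lack, and the region over the high-coordinate end of en is present in all 10.

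The covered length of inv was highest in the disc and that of en at 48%. For inv it was 16256 and 17494 bp at 0%, 12489 and 10530 bp at 48%, 10768 and 10690 bp at 60%, 10010 and 10378 bp at 69%, and 8580 and 10563 bp at 78%. Both disc libraries lay above all 8 others, which held for 18.8% of genes. For en it was 2592 and 3286 bp at 0%, 5014 and 4691 bp at 48%, 3527 and 4070 bp at 60%, 3927 and 3930 bp at 69%, and 2861 and 3701 bp at 78%. Both 48% libraries lay above all 8 others, which held for 6.61% of genes, and the lowest library was replicate 1 of 0%. The rule of the nearer gene divided the space between the paralogues. Under it 2 regions within 10 kb of en were counted at inv, and 5 within 10 kb of inv at E(Pc) or en. Among the 2 was that from 11515034 to 11516976, with 1825 and 1750 bp at 0% and 1105 and 938 bp at 48%. The fragment length setting was 162 and 206 bp at 48%, 208 and 56 bp at 0%, and 52 to 58 bp at 69% and 78%. The part of that setting in the 48% values was not tested.

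Stage differences in covered length were tested over all divisions of the 10 libraries into 5 pairs (exact permutation test on the share of variance between stages), and p-values were adjusted by Benjamini-Hochberg over 13029 genes. Of all genes 22% passed an adjusted p of 0.05, and of the members hh, ptc and dpp did. These were 2862 genes, and between 279 (without replicate 1 of 69%) and 2008 when single libraries were left out. Neither paralogue passed (exact p = 0.0466 for inv and 0.0254 for en, adjusted p = 0.0997 and 0.0717). The share of variance between stages was 0.936 for inv and 0.843 for en. Divided by each library's total covered length both passed (exact test, adjusted p = 0.0332 and 0.0436), as did 23.3% of all genes. On that scale inv had 748 ± 45.1 bp per Mb at 0% and 486 ± 13.0 at 78%, and en had 129 ± 7.17 at 0% and 261 ± 16.3 at 48% (SD, n = 2 each). Both 0% libraries were then the lowest for en (28.2% of genes), both 48% libraries still the highest for en, hh, ptc and brk (13% of genes), and both 0% libraries the highest for inv (14.5% of genes).

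The gene of the ligand, hh (Dmel_CG4637, 3R, 23128169 to 23141906), lost covered length at the late stages. It had 7360 and 7565 bp at 0%, 7573 and 7594 bp at 48%, 6260 and 6273 bp at 60%, 6135 and 5758 bp at 69%, and 4309 and 5066 bp at 78%. The disc and 48% libraries lay close together, and both 78% libraries lay below all 8 others, as they did for 10.8% of genes and, per Mb covered, for 6.98%. The covered length differed by stage (exact permutation test, p = 0.00106, the smallest the test can give, adjusted p = 0.0263), and 78% stood at 0.628 of the mean at 0%. Of the genes that passed, 32.7% had their lowest mean at 78% and 32.6% their highest at 0%. The call at hh was lost without replicate 1 or 2 of 60% or replicate 1 of 69% (adjusted exact p = 0.0620, 0.0652 and 0.0579).

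Most of the fall at hh lay in a few wide regions. The widest of its 15 regions, inside the span from 23130528 to 23133877, was covered over 2996 and 2923 bp at 0%, 1945 to 2508 bp from 48% to 69%, and 1108 and 1235 bp at 78%. The region over the high-coordinate end, from 23141306 to 23142825, had 1190 and 1088 bp at 0%, 1370 and 1424 bp at 48%, and 675 and 705 bp at 78%. The region over the low end, from 23127328 to 23128323, had 755 and 950 bp at 0% and 442 to 716 bp in the pupal libraries, and it is the 1 hh region that also overlaps another gene, CG31457.

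Inside hh the listed places moved with stage. In the middle of the gene, the region from 23134421 to 23134925 was listed in the disc alone, over 458 and 456 bp, as was that from 23135823 to 23136050. Nearer the high-coordinate end, the region from 23139128 to 23140636 was listed in no 0% library, over 1413 and 1374 bp at 48% and over 235 to 787 bp in the 6 later libraries. The region from 23138762 to 23139013 was listed in all 4 libraries of 69% and 78% and in no earlier one, over 144 to 237 bp, a pattern of 2 members (1.42%, against 1.36%). Disc and pupal wing thus had separate listed regions within 1 gene. Of the 15 regions, 5 were listed in all 10 libraries, as were 16.7% of all regions.

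The receptor gene ptc (Dmel_CG2411, 2R, 8649649 to 8665223), itself a target of the pathway, lost covered length at the late stages. Of its 20 regions 10 were listed in all 10 libraries, as were 16.7% of all regions. From 0% to 48%, 1 of 15 opened (against 8.84% of all regions) and 1 closed (against 19.8%). From 48% to 78%, 2 of 15 closed (against 5.26%). Its covered length was 12189 and 12076 bp at 0%, 12850 and 12646 bp at 48%, 10911 and 11388 bp at 60%, 9229 and 8233 bp at 69%, and 6958 and 7635 bp at 78%. No library of 69% or 78% reached any earlier library. The difference by stage passed (exact permutation test, p = 0.00106, adjusted p = 0.0263), with 78% at 0.601 of 0% and a share of variance between stages of 0.98. It did not pass without replicate 1 of 69% (adjusted exact p = 0.0538).

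At ptc the region over the low-coordinate end had much the same length at all stages, while several others were shorter at the late ones. That region, from 8649244 to 8650615, was covered over 1193 to 1303 bp in every library. The region from 8647223 to 8648224 was covered over 903 to 997 bp at 0% and 48%, and over 811 to 899 bp at the later stages. Inside the gene, the region from 8655217 to 8656531 was covered over 1315 and 1216 bp at 0%, 1003 and 1054 bp at 48%, 863 and 867 bp at 60%, 768 and 590 bp at 69%, and 342 and 162 bp at 78%. Beside the gene, the region from 8643148 to 8645467 went from 1757 and 1629 bp at 0% to 472 and 701 bp at 78%. From 8653522 to 8654044, entries were present in all 6 libraries up to 60% and in none at 69% or 78%. The widest, over the high-coordinate end from 8664914 to 8668173, had 3120 and 3125 bp at 48% and 1818 and 1959 bp at 78%, and it also reaches Acsl.

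The gene of the transducer Ci (ci, Dmel_CG2125, chromosome 4, 47710 to 57041) showed no stage difference that passed. It had 3394 and 3538 bp at 0%, 3062 and 2387 bp at 48%, 3193 and 2656 bp at 60%, 2708 and 2185 bp at 69%, and 2940 and 2278 bp at 78% (exact permutation test, p = 0.226, adjusted p = 0.293). Both 0% libraries lay above the others in bp, but not per Mb covered. Replicate 1 exceeded replicate 2 at each of the 4 pupal stages. Of its 7 regions 3 were listed in all 10 libraries, as were 16.7% of all regions. Among the 3 were that over the high-coordinate end, from 56097 to 57123, and the widest, from 58547 to 60949. The widest had 2205 and 2311 bp at 0% and 1355 to 1806 bp in the pupal libraries, so most of the gap between the disc and the pupal libraries lay there.

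The gene of the second ligand, dpp (Dmel_CG9885, 2L, 2428372 to 2459823), had 33 regions, 26 over its span and 7 beyond the high-coordinate end. Its covered length was 18380 and 19535 bp at 0%, 16574 and 14925 bp at 48%, 16809 and 15778 bp at 60%, 14310 and 14311 bp at 69%, and 11528 and 13673 bp at 78%. In bp both disc libraries were the highest (18.8% of genes) and both 78% libraries the lowest (10.8% of genes). Per Mb covered, the disc (882 and 799 bp per Mb) and 48% (901 and 794) overlapped, and both 78% libraries (640 and 641) were still the lowest. The difference by stage passed (exact permutation test, p = 0.00423, adjusted p = 0.0344), with 78% at 0.665 of 0%. Over the span alone it did not pass (exact test, adjusted p = 0.145), and it passed only without replicate 1 of 0% or replicate 2 of 78% when the 10 libraries were left out in turn (adjusted exact p 0.0545 to 0.0787 in the other 8 settings).

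The flank beyond the high-coordinate end of dpp held the dpp region covered furthest in the disc. As background, disc enhancers of dpp have been mapped downstream of its transcription unit. The region from 2465966 to 2469011, the widest of that flank, had 2597 and 2565 bp at 0%, 930 and 778 bp at 48%, 1705 and 1333 bp at 60%, 1065 and 972 bp at 69%, and 652 and 977 bp at 78%. The region from 2461348 to 2462776 had 1320 and 1248 bp at 0% and 209 to 848 bp in the pupal libraries. That from 2462935 to 2463965 was listed over 1019 and 990 bp at 0% and in no pupal library, and that from 2464333 to 2464767 in all libraries of 0% and 48% and in none later. Of these 4, the first 2 were covered furthest at 0%, with less at 48% than at 60% on average, and the others were listed at 0% alone or at 0% and 48% alone. The outermost, from 2469278 to 2469816, differed from them, with 342 and 362 bp at 0% and 535 and 306 bp at 60%.

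Inside the dpp span disc and pupal regions alternated. At 0%, 786 and 807 bp were covered from 2446943 to 2447751, and 889 and 1157 bp from 2448084 to 2449283. Both were listed in no 48% library, in both 60% libraries over 101 to 395 bp, in 1 library of 69% each, and in none at 78%. Farther in, the stretch from 2441702 to 2442830 was listed in no library of 0% or 48%, over 532 and 250 bp at 60%, 1081 and 1129 bp at 69%, and 863 and 933 bp at 78%. Next to it, the region from 2440618 to 2441471 was listed in all libraries of 0% and 48% and in none later, so the 2 neighbours exchanged places between 48% and 60%. The region over the low-coordinate end, from 2426311 to 2429369, was listed in all 10 libraries, over 1932 and 2178 bp at 0% and 2592 to 3031 bp in the pupal libraries.

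**Figure D4:**
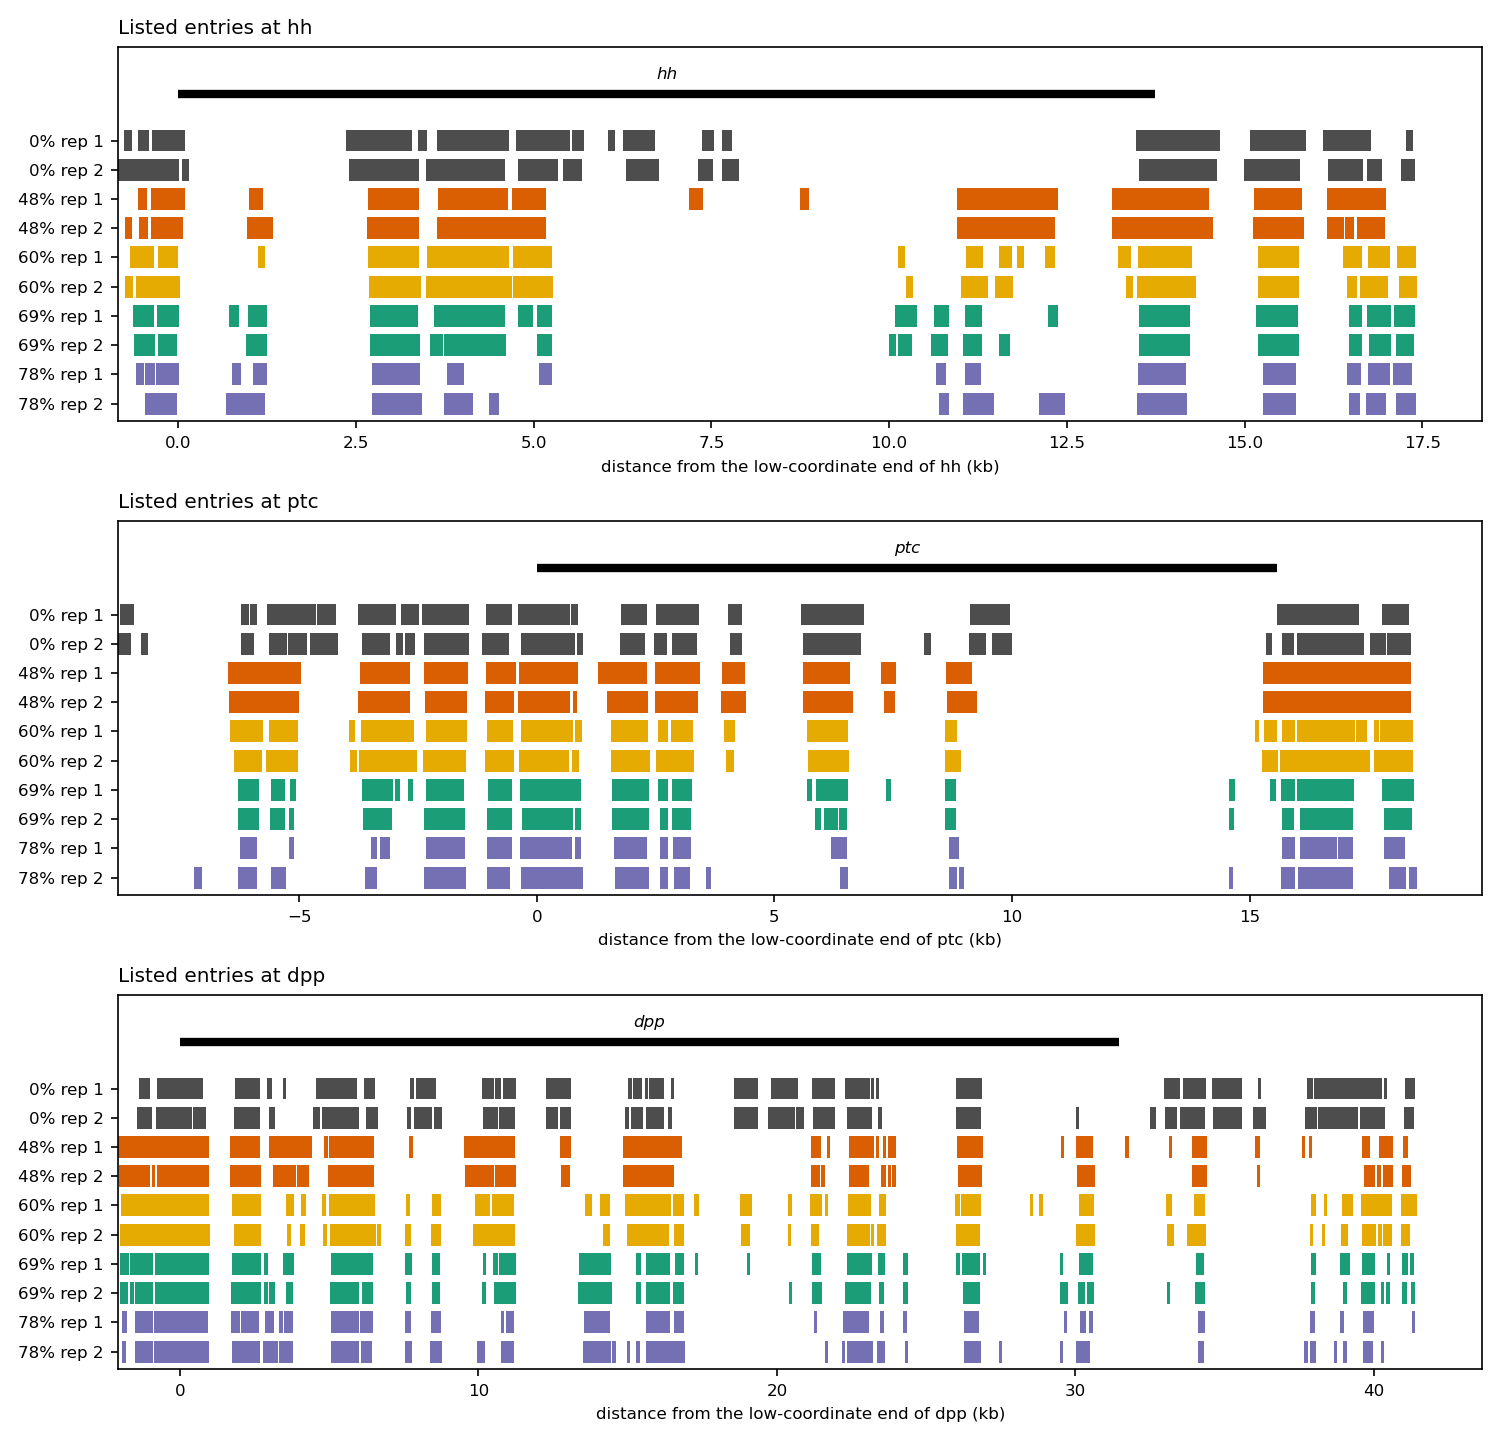
Entries listed by each library (rows, coloured by stage) at hh, ptc and dpp against distance from the low-coordinate end of each gene (x axis, kb), with the gene span as a black bar. At ptc the same places are listed at most stages but entries shorten by 78%, while hh and dpp also hold places listed at some stages alone.

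Dad (Dmel_CG5201, 3R, 17054007 to 17070408), the inhibitory Smad gene induced by Dpp, had 9197 and 8595 bp at 0%, 8926 and 7876 bp at 48%, 8738 and 9021 bp at 60%, 7525 and 6839 bp at 69%, and 6580 and 7911 bp at 78%. The libraries of 0%, 48% and 60% overlapped. Both 69% libraries lay below all of these, and the 78% libraries overlapped those of 48% and 69%. The test was not passed (exact permutation test, p = 0.116, adjusted p = 0.176). Of its 15 regions 7 were listed in all 10 libraries, as were 16.7% of all regions. The region over its low end, from 17052310 to 17055131, was covered over 2508 and 2244 bp at 0% and 1637 to 2065 bp in the pupal libraries. The region from 17051313 to 17051854 was listed in the disc alone, over 506 and 524 bp, and that from 17066776 to 17067677 in all 8 pupal libraries alone, over 548 to 832 bp. From 17061428 to 17063317, 1839 and 1746 bp were covered at 0%, 869 and 838 bp at 48%, 1296 and 1318 bp at 60%, 740 and 595 bp at 69%, and 596 and 739 bp at 78%.

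The repressor gene brk (Dmel_CG9653, X, 7307939 to 7311132) had a single region under the rule, over its low-coordinate end from 7307248 to 7308434, where CG1677 overlaps too. It was listed in all 10 libraries, over 1146 and 1004 bp at 0%, 1168 and 1177 bp at 48%, 1025 and 1158 bp at 60%, 1059 and 1042 bp at 69%, and 1016 and 1018 bp at 78%. All 10 values thus lay close together, and the test was not passed (exact permutation test, p = 0.302, adjusted p = 0.369). A further 11 regions within 10 kb of brk belonged to the closer genes Atg5 and CG1677 and are not members, and the same held for 14 regions beside hh and 13 beside Dad.

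**Figure D5:**
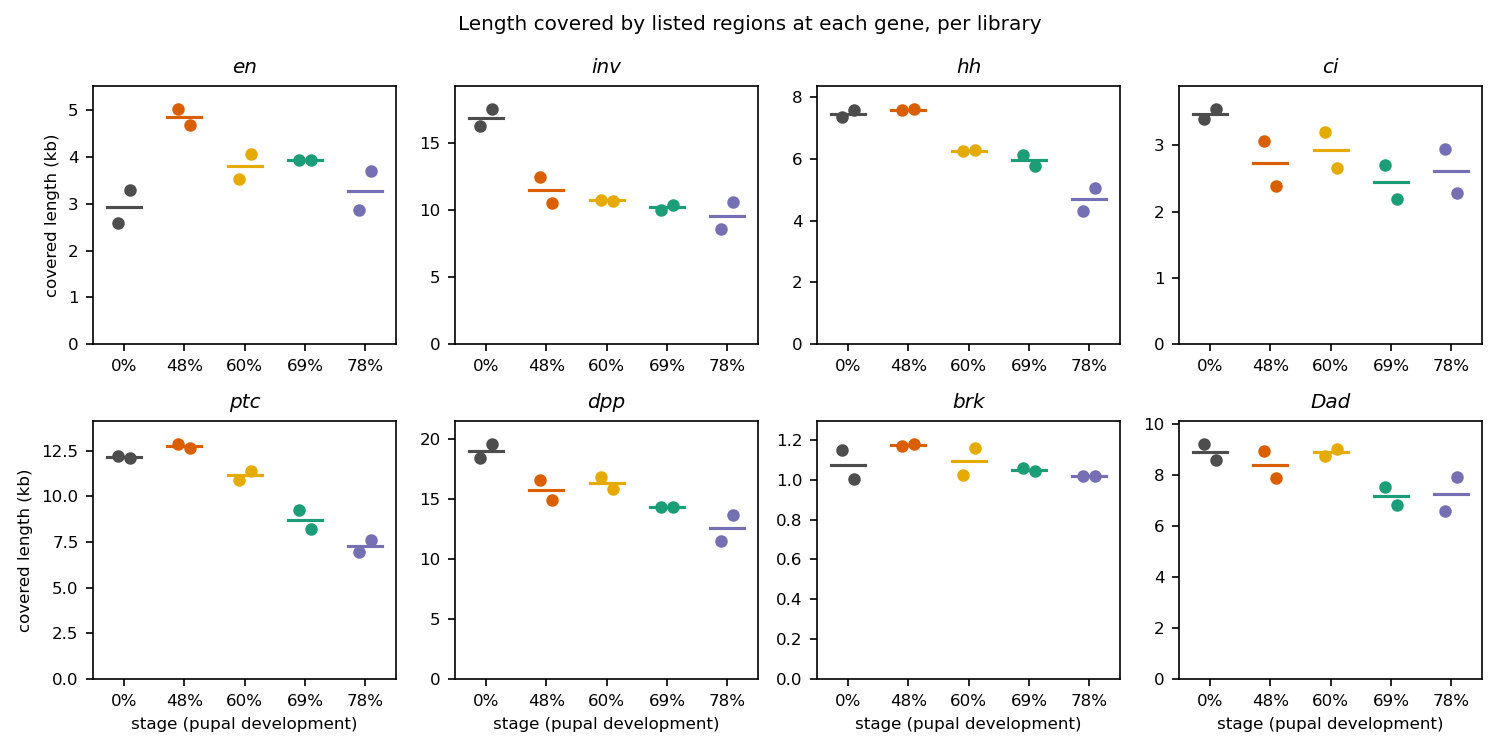
Length covered by listed entries (y axis, kb) at each of the 8 genes by stage (x axis), with a point for each library and a line for the mean of 2. The 78% points lie below all others for hh, ptc and dpp, the 0% points above all others for inv, ci and dpp, and the 48% points above all others for en, hh, ptc and brk.

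Within the regions listed in all 10 libraries, length differed between stages in both directions. Of the 51, 15 were covered further in both disc libraries than in any pupal library (29.4%, against 19.1% of all such regions) and 12 less far (23.5%, against 16.8%). In 8 both the disc and the 48% libraries exceeded every later library (15.7%, against 6.86%), and in 13 both 48% libraries exceeded all others (25.5%, against 12.9%). The median over the 8 genes of the mean covered length at 78% over that at 0% was 0.709, beside 0.992 over 12263 genes and 0.984 over those with at least 5 regions. Per the file headers the libraries lie in 2 dated folders, the first with all replicate 1 libraries and both of 48%. The ratio of 78% to 0% within the first and the second folder was 0.585 and 0.67 for hh, 0.571 and 0.632 for ptc, 0.627 and 0.7 for dpp, and 0.528 and 0.604 for inv. These genes were thus covered less at 78% in both, as were ci (0.866 and 0.644) and Dad (0.715 and 0.92). The ratio was above 1 in both for en (1.1 and 1.13) and on both sides of 1 for brk (0.887 and 1.01).

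Of 15 other genes of the Hh pathway, 3 differed by stage after adjustment (22% of all genes did), boi, dlp and shf, and each was highest at 0% and lowest at 78%. The co-receptor gene boi had 10414 and 10456 bp at 0% and 3083 and 2984 bp at 78% (exact permutation test, adjusted p = 0.0313), and the glypican gene dlp had 14125 and 14614 bp at 0% and 4522 and 7361 bp at 78% (adjusted exact p = 0.0297). The gene shf, whose secreted product helps Hh spread, had 4243 and 3928 bp at 0% and 514 and 513 bp at 78% (adjusted exact p = 0.0396). On the bp scale the transducer genes smo and cos did not pass: smo had 1065 and 1199 bp at 0% and 1386 and 1491 bp at 78%, and cos had 1713 and 2035 bp and 2439 and 2850 bp (adjusted exact p = 0.146 and 0.0806). Per Mb covered 7 of the 15 passed (23.3% of all genes), among them cos with its highest mean at 78%, 135 bp per Mb against 82.7 at 0% (adjusted exact p = 0.025, the smallest any gene reached on that scale). Over the list, 20.7% of assessed regions closed from 0% to 48% (against 19.8% of all regions) and 6.96% from 48% to 78% (against 5.26%). The shares opened were 9.66% (against 8.84%) and 16.5% (against 16.5%). The most closed regions lay in dlp, at 9 of 28 and 4 of 32 over the same steps. The most opened lay in ttv, a heparan sulphate polymerase gene, at 4 of 37 and 11 of 38. The median ratio of 78% to 0% over the list was 1.14, on the other side of 1 from that of the 8 genes.

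On the Dpp pathway list 3 of the 17 genes with a region passed, tkv, tok and bi, while tsg had no region, and per Mb covered 7 passed. Of all genes 22% passed in bp and 23.3% per Mb. The type I receptor gene tkv had 21393 and 20515 bp at 0%, 23286 and 20653 bp at 48%, and 12567 and 15521 bp at 78% (exact permutation test, adjusted p = 0.0482). The T-box gene bi, a Dpp target in the disc, had 19082 and 20026 bp at 0%, 16055 and 15424 bp at 48%, and 5769 and 7135 bp at 78% (adjusted exact p = 0.0263). It also closed at the most regions, 13 of 41 from 0% to 48% and 11 of 26 from 48% to 78%. Over the list the closed shares at these steps were 15.7% (against 19.8% of all regions) and 10.1% (against 5.26%). The most opened regions lay in shn, the gene of a Smad cofactor (10 of 28 from 0% to 48%), and in salm, another Dpp target (8 of 21 from 48% to 78%). Over the list the opened shares were 20.9% (against 8.84% of all regions) and 13.4% (against 16.5%). The protease gene tok was highest at 0% (4443 and 4578 bp) and lowest at 48% (2122 and 2098 bp, adjusted exact p = 0.0344), so the passing genes did not share a lowest stage. The median ratio of 78% to 0% was 0.992 over this list.

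The dorsoventral and pouch genes of the same discs gave 4 of 12 genes that passed (ap, sd, Ser and N), all lowest at 78%. Of all genes 22% passed. Their median ratio of 78% to 0% was 0.681. From 0% to 48%, 31 of 268 regions opened (11.6%, against 8.84% of all regions) and 54 closed (20.1%, against 19.8%). From 48% to 78%, 29 of 242 opened (12%, against 16.5%) and 31 closed (12.8%, against 5.26%), close to the 12.6% of the anteroposterior genes. The most opened regions lay in nub (6 of 33 from 0% to 48% and 6 of 35 from 48% to 78%) and the most closed in dve (9 of 34) and rn (6 of 36) over the same steps. No difference between these genes and the anteroposterior ones was tested.

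The summed covered length of markers of other cell types also varied between stages. Of 6 genes in each list, 3 muscle, 3 trachea, 1 neuron and sensory organ and 0 hemocyte markers passed the stage test (22% of all genes did). Per Mb covered the counts were 4, 3, 2 and 0 (23.3% of all genes). Muscle markers summed to 52.3 to 60.1 kb at 0%, 16.5 to 22.1 kb at 48%, 31.3 to 37.2 kb at 60%, 35.1 to 36.2 kb at 69% and 29.9 to 35.9 kb at 78%, with 3 of 6 genes higher in both disc libraries than in both 48% libraries, up at 0 bp at 0% and wupA at 0 bp at 78%. Hemocyte markers had 9.78 to 13.8 kb, 5.92 to 8.41 kb, 8.81 to 9.42 kb, 8.59 to 8.74 kb and 6.28 to 8.87 kb at the same stages (3 of 6 higher, He at 0 bp at 78%). These 2 lists were thus highest in both disc libraries. Trachea markers had 49.9 to 57.5 kb, 41.4 to 43.4 kb, 51.8 to 57.6 kb, 52.4 to 53.4 kb and 38.6 to 46.7 kb (4 of 6 higher, none at 0 bp). Neuron and sensory organ markers had 11.8 to 14.8 kb, 8.92 to 10.4 kb, 11.9 to 12.0 kb, 13.2 to 14.0 kb and 11.2 to 14.1 kb (4 of 6 higher, nSyb at 0 bp at 0% and ase at 48% and 78%). In these lists the disc overlapped later pupal stages, and 48% was below the disc in all 4. The sums were not scaled to list size, and the lists covered 18.39 and 18.79 Mb at 48% and 20.85 and 24.44 Mb at 0%. Over 12263 genes the median ratio of 48% to 0% was 0.942. The share of all genes higher in both disc libraries than in both 48% libraries was not counted. The part of the marked cell types in the disc regions of inv, hh and dpp was not tested.

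The gene whose covered length per Mb followed each member most closely over the 10 libraries was named by Pearson's r, among genes with at least 5 regions. It was CG3376 for en (0.981), CG3097 for inv (0.988), Ptp10D for hh (0.992), PhKgamma for ptc (0.988), Eph for ci (0.902), CG43736 for dpp (0.986), Tgi for Dad (0.908) and aPKC for brk (0.947). These are the highest of many correlations over libraries that share stage and depth, so they are given as a description.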

How the data were processed

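The submitters' processing notes name dm6 as the build, with HOMER, MACS2, SAMtools, Picard and Bowtie2 as tools and no versions. Per the file headers, each deposited list is the output of findPeaks run in histone mode (windows of 100 bp, joined where enriched), with a Poisson p threshold of 0.001, a genome size of 120 Mb and no input control. The deposited score is 1 throughout, so regions have positions but no height. No transposase shift is named in the headers. Here the 10 single-library lists were merged where entries shared at least 1 base, and 93.2% of the regions could be assigned to protein-coding genes (RefSeq table of Release 6), a region to each gene it overlapped or else to the nearest within 10 kb. Calls, covered length and the exact stage test over 945 pairings used Python 3.11.15 with numpy 2.4.6 and pandas 2.3.3. The stage test was tried on simulated data, and merging, covered length and assignment to genes on a small made set. The opened and closed calls were not tried in this way. With the replicate block, pairings joined a replicate 1 with a replicate 2 library only (120).

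The 8 genes and the gene lists were chosen with earlier results of these data known. Named from the other lists are the genes that passed the stage test, those with most opened or closed regions and, chosen after their values were seen, smo and cos. For each gene the text gives the regions over its ends, the widest and a few listed at some stages alone, the last of these picked with their values in view. No sequence was used, so the planned motif search was not run. Alternatives were stricter and equal lists, length per Mb, a cover of 50%, the authors' pooled lists, spans or 5 kb flanks alone, each library left out and, added after the data were seen, the count without inv.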

Additional observations from a re-analysis of the deposited data

Results flagged for a closer look

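The authors' lists called on pooled replicates were not used in the comparisons above, and 4 results in them concern these genes. Entries that touch no region of any single library were found at inv in the pooled list of 0%, where there were 2 with 283 bp in all, and at inv in that of 78%, where there was 1 of 101 bp. There was 1 at dpp in the pooled list of 48%, of 134 bp, and 1 at ptc in that of 78%, of 101 bp. The pooled lists rest on more tags than single libraries, 185648413 at 0%, 138724130 at 48% and 146783761 at 78%.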

How the results depend on the processing

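Of the 13 regions opened from 0% to 48%, the count ranged from 13 to 20 with 1 replicate left out. The 23 closed regions became 14 over gene spans alone and 10 without inv, and ranged from 24 to 32 with 1 replicate left out. From 48% to 78%, the 5 opened regions became 2 with an equal number of entries per library and 13 in the authors' pooled lists, and ranged from 7 to 17 with 1 replicate left out. The 13 closed regions became 8 in the first 50% of each list and ranged from 14 to 23 with 1 replicate left out. For covered length, the share of variance between stages is given with its adjusted exact p. Per Mb covered, en passed at 0.938 (0.0436) and inv at 0.911 (0.0332), and inv also passed with equal lists at 0.94 (0.0492). In the first 50% of each list hh had 0.945 (0.0547) and dpp 0.908 (0.0577), and over its span alone dpp had 0.696 (0.145). With the replicate block, hh had 0.971, ptc 0.98, dpp 0.903 and ci 0.843 (0.627 without it). Each had an exact p of 0.00833, the smallest that the block's 120 pairings can give, and an adjusted p of 0.0969, the smallest any gene reached. No gene of 13029 thus passed, although 4155 had an unadjusted p under 0.05. With so few pairings, the lack of passing genes cannot show that stage differences weakened. By construction the block leaves the opened and closed counts as they were. Deviations of same-numbered libraries correlated at -0.43 to 0.486 over 10 pairs of stages, 6 of them over 0.1. These mixed values cannot settle whether the replicate numbers pair the libraries. All replicate 1 libraries lie in the first dated folder, and at ci replicate 1 exceeded replicate 2 at all 4 pupal stages. With 1 library left out, the share ranged from 0.775 to 0.913 for en, 0.894 to 0.962 for inv, 0.963 to 0.991 for hh, 0.49 to 0.736 for ci, 0.977 to 0.991 for ptc, 0.87 to 0.944 for dpp, 0.471 to 0.783 for brk and 0.718 to 0.868 for Dad. Of these 10 settings hh passed in 7 (not without either 60% library or replicate 1 of 69%, adjusted exact p 0.0579 to 0.0652), ptc in 9 (not without replicate 1 of 69%, 0.0538) and dpp in 2. The number of passing genes also moved, from 2862 to 279 without replicate 1 of 69%, 296 without replicate 2 of 60%, 839 without replicate 1 of 60% and 1938 in the first 50% of each list. Apart from what a setting builds in, the cause was not tested.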
